A study of Mus musculus with 12 samples.

Results

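Cytosolic ribosomal protein genes encode the proteins of the ribosome's large (Rpl) and small (Rps) subunits. In the table of 34745 genes, 80 were taken as members by their symbol, 49 of the large and 31 of the small subunit, with the stalk genes Rplp0, Rplp1 and Rplp2 counted as large and with pseudogenes and mitochondrial ribosomal proteins left out. The naming rule also leaves out ribosomal protein genes or their relatives that are named otherwise, such as Rpsa and Rpl22l1. Counts were found for 79 members, and Rpl10l, a retrogene known from testis, had 0 counts in all 12 libraries, which allows up to 3 counts in each. The tissue was medial prefrontal cortex (mPFC). It came from male mice of wild-type genotype, 28 days after chronic constriction injury (CCI) of the sciatic nerve, a model of neuropathic pain made by tying loose ligatures around the nerve, and from naive mice. The labels give the naive mice as day 28 of habituation. No sham-operated group is among the 12 libraries, so the operation and the nerve injury cannot be told apart. The ipsilateral group was the left mPFC of CCI mice (n = 4), the contralateral group the right mPFC of CCI mice (n = 4), and the third group naive mPFC (n = 4), whose hemisphere the labels do not give; age is not given either. The left and right libraries with the same number were read as 1 mouse, which the library codes imply and the labels do not state.

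Ribosomal proteins are made in step with ribosomal RNA, and most of them are needed in equal amounts. Their messages are known for starting with a cytosine followed by a run of pyrimidines, the 5′ terminal oligopyrimidine tract, through which the kinase mTOR sets how strongly they are translated. In neurons and glia the same messages are also found in processes and at synapses, where ribosomes translate locally. Mammalian genomes hold many processed copies of these genes, some of them nearly identical to the parent.

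Start-site sequences are shown because they are the feature the family is best known for. RefSeq's promoter table for GRCm38.p6 held 59 of the 80 members. A run of at least 8 bases made only of C and T, reaching to within 20 bases of the annotated start on the gene's strand, was present in 29 of the 59 (49.2%) and in 20.8% of all 27025 genes of the table. Runs of A and G, the same pattern on the other strand, were present in 6 of the 59 (10.2%) and in 22.8% of all genes. The windows below hold 20 bases before the annotated start and 10 from it, with the C/T run in capitals; they are at chr4:86857358-86857387 (minus strand, Rps6), chr11:114668560-114668589 (plus, Rpl38), chr17:33955656-33955685 (minus, Rps18), chr3:90213639-90213668 (minus, Rps27), chr5:115559447-115559476 (plus, Rplp0) and chr17:24720043-24720072 (plus, Rps2).
Rps6: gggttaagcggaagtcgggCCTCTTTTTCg
Rpl38: ccggaagcggaagcctcgTTCTTTCCCCgt
Rps18: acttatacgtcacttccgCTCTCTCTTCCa
Rps27: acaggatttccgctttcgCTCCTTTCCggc
Rplp0: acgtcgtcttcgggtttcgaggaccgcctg
Rps2: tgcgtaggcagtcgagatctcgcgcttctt
The windows of Rplp0 and Rps2 hold no such run; this says only that the letters are not there at the start RefSeq annotates.

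The libraries held 16089476 to 20647242 counts. Members took 0.469%, 0.430%, 0.462% and 0.473% of all counts in contralateral libraries 1 to 4 (0.459% ± 0.0195, SD, n = 4). The ipsilateral libraries gave 0.431%, 0.440%, 0.433% and 0.400% (0.426% ± 0.0178, SD, n = 4), and the naive ones 0.452%, 0.450%, 0.406% and 0.432% (0.435% ± 0.0213, SD, n = 4). The 3 highest libraries were contralateral, but contralateral 2 lay below naive 1, naive 2, naive 4 and 3 of the ipsilateral libraries, so the groups overlapped. Ipsilateral 4 and naive 3 were the lowest. Large-subunit members had 1.52 to 1.64 times as many counts as small-subunit members across the libraries, and the 10 members with the most counts held 43.3% to 44.8% of the members' counts.

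**Figure D1:**
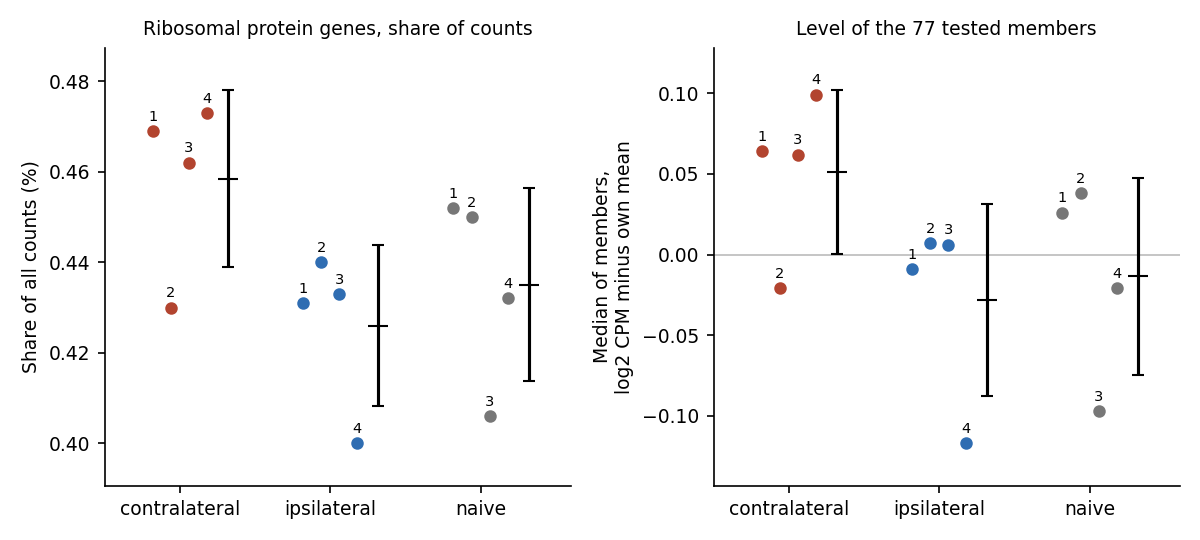
Left, the share of all counts in the 80 members (percent) for each library; right, the median over the 77 tested members of log2 CPM minus each member's own mean over the 12 libraries. Points are libraries with their number, and bars are the mean and SD of 4 libraries. Contralateral 1, 3 and 4 sit highest, while ipsilateral 4 and naive 3 sit lowest in both panels.

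Levels differed widely between members. Per kilobase of the main GENCODE M21 transcript, the highest were Rps15 (448 CPM per kb), Rplp1 (376), Rpl8 (273), Rps14 (240.2), Rpl4 (239.9) and Rpl41 (233), where CPM is the count scaled by library size and TMM factor. Rps15 lies in the head and Rps14 on the platform of the small subunit, Rplp1 is an acidic protein of the stalk that recruits elongation factors, and Rpl41 is the shortest of the family. Of the 80 members, 25 had a mean count of 1000 or more per library and 15 had under 100. The authors' FPKM could not be used to rank members: the gene length implied by count and FPKM was 0.52 to 18.55 times the length of the main transcript, with a median of 3.39.

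Many members share sequence with other genes, which bears on what a low count can mean. Of the 79 members with a coding transcript in GENCODE M21, 76 share at least 1 window of 50 bases with another gene, and 49 have under 50% of their windows to themselves. The median level was 33.3 CPM per kb for those 49 and 54.9 CPM per kb for the others, with a Spearman rho of 0.21 between the unique share and the level over 78 members, given as a description. For 31 members, another gene in the table shares 20% or more of the windows, and for 12 of them that gene held more counts than the member. The most unequal pair was Rps27, with a mean of 19.9 counts per library, and Rps27rt, with 790. Rpl9 had 49.1 counts and Rpl9-ps6 had 1511, and Rpl23a had 37.2 counts and Rpl23a-ps3 had 843. The coding sequences of these pairs, or the matching stretch of the copy, are printed because they show how little separates the genes. Rps27 (chromosome 3) and Rps27rt (chromosome 9) are identical over all 252 coding bases, of which the first 60 follow.
Rps27: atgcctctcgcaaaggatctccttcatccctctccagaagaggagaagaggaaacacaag
Rps27rt: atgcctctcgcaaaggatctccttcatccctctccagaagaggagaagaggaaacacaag
Rpl9 (chromosome 5) and Rpl9-ps6 (chromosome 19) differ at 1 of 576 coding bases, G266A, counted from the A of the start codon; bases 236 to 295 are shown with that base in capitals.
Rpl9: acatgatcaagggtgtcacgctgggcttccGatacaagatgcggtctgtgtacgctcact
Rpl9-ps6: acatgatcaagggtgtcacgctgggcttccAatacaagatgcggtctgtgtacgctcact
Rpl23a (chromosome 11) and Rpl23a-ps3 (chromosome 14) differ at 1 of 468 coding bases, A116T, within bases 86 to 145.
Rpl23a: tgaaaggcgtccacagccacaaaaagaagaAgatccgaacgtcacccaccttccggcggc
Rpl23a-ps3: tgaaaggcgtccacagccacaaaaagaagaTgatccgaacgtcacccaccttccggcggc
How reads that fit both genes of a pair were assigned is not given in the sources used here, so the levels of these members and their partners are uncertain one by one.

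**Figure D2:**
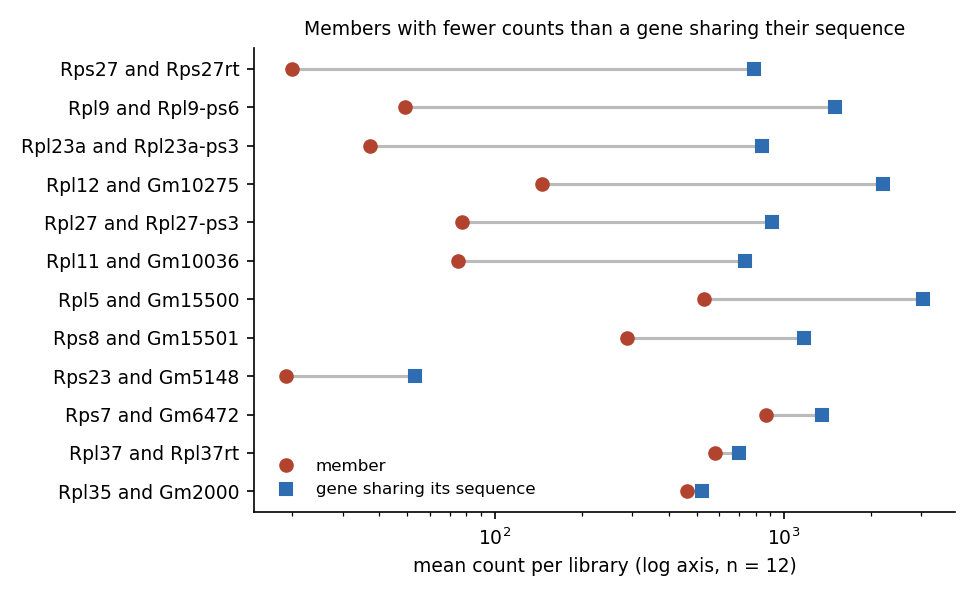
Mean count per library (n = 12, log axis) of the 12 members that had fewer counts than another gene sharing 20% or more of their 50-base windows, each joined to the partner with the most counts. The gap runs from Rpl35 with 463 and Gm2000 with 521 to Rps27 with 19.9 and Rps27rt with 790.

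In the contralateral mPFC against naive mPFC, 67 of the 77 tested members had a positive log2 fold change, against 50.1% of all 15808 tested genes, and no member passed the test. The median log2 fold change was 0.072 over the members (0.071 for the large and 0.074 for the small subunit) and 0.000 over all genes. Without naive 3, the lowest naive library, 60 members were positive and the median was 0.037. With edgeR's quasi-likelihood test at an adjusted p under 0.05, 0 members and 0% of all genes were called; 4 members, and 597 genes in all, had an unadjusted p under 0.05. DESeq2 called 3 genes and limma 0, none of them a member. No member's groups were separated, against 1.04% of all genes with every contralateral library higher and 1.16% with every one lower.

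Rps15 stood at 241, 215, 239 and 258 CPM in contralateral libraries 1 to 4 and at 231, 218, 190 and 214 CPM in naive libraries 1 to 4. Contralateral 2 fell among the naive values. Its log2 fold change was 0.16 (SE 0.07; edgeR adjusted p = 0.9999). Rpl35a, a large-subunit protein mutated in some patients with Diamond-Blackfan anaemia, gave 12.6, 10.1, 13.7 and 12.4 CPM in the contralateral libraries and 9.8, 11.8, 9.3 and 9.4 CPM in the naive ones, a log2 fold change of 0.28 (SE 0.11). Rpl41 had a log2 fold change of 0.13 (SE 0.06), with contralateral values of 108, 105, 102 and 115 CPM and naive values of 104, 102, 88.4 and 97.6 CPM. The fourth, Rps23, a small-subunit protein at the decoding centre, held a mean of only 19.0 counts; it stood at 0.96 to 1.55 CPM in contralateral and 0.78 to 1.00 CPM in naive libraries, with a log2 fold change of 0.53 (SE 0.23). With the counts of the 2 non-member genes that share its sequence added (Gm5148 and C330021F23Rik), the log2 fold change of Rps23 became -0.01 (SE 0.19), a setting chosen after seeing the data.

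In the ipsilateral mPFC against naive mPFC, 31 of 77 members had a positive log2 fold change, against 49.9% of all genes, with a median of -0.013. The median's sign turned without ipsilateral 4 (0.021), naive 1 (0.010) or naive 2 (0.005), and without naive 3 the median was -0.047, with 22 members positive. No member was called (edgeR), as was the case for 0% of all genes, and 1 member and 763 genes had an unadjusted p under 0.05; DESeq2 called 9 genes and limma 0, none of them a member. That member was Rps2, a small-subunit protein at the mRNA entry side, with 121, 105, 115 and 108 CPM in the ipsilateral and 131, 128, 117 and 124 CPM in the naive libraries. Its log2 fold change was -0.16 (SE 0.07; edgeR adjusted p = 0.972), and ipsilateral 1 lay above naive 3. Rps15a was the only member whose groups did not overlap, with 112 to 117 CPM in the ipsilateral and 108 to 110.0 CPM in the naive libraries and a log2 fold change of 0.07 (SE 0.05). Over all genes, 1.94% were separated in that direction and 2.76% in the other.

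Between the hemispheres of the CCI mice, most members read higher on the right, by small amounts. In contralateral against ipsilateral libraries, 67 of 77 members had a positive log2 fold change, against 51.1% of all genes, with medians of 0.095 over the members and 0.005 over all genes. No member passed the test (edgeR), 0% of all genes did, and 5 members and 1322 genes had an unadjusted p under 0.05; DESeq2 and limma called 0 genes. The main fit did not pair the left and right library of a mouse. This comparison uses the same contralateral libraries as the one with naive mPFC, so the equal counts of 67 are not independent of each other. Of the 33 tested genes outside the list that share sequence with a member, 25 had a positive value here (median 0.085) and 27 in contralateral against naive (median 0.060). Separated groups were seen for Rps24 and Rpl21, both higher in the contralateral libraries, against 1.61% of all genes higher and 1.33% lower.

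Rpl13a, a large-subunit protein that also serves in interferon-controlled translational silencing, stood at 219, 191, 221 and 222 CPM in contralateral libraries 1 to 4. Its ipsilateral values were 199, 191, 177 and 169 CPM, so contralateral 2 fell below ipsilateral 1. The log2 fold change was 0.21 (SE 0.07; edgeR adjusted p = 0.592). Rps2 gave 139, 113, 135 and 139.7 CPM in the contralateral libraries, with contralateral 2 again below ipsilateral 1 and 3, and a log2 fold change of 0.23 (SE 0.07). Without contralateral 2, Rps2 passed the test at a log2 fold change of 0.30 (SE 0.06; edgeR adjusted p = 0.0404). In that setting 159 of all 15971 genes were called. Rplp1 (211, 177, 205 and 221 against 181, 185, 177 and 165 CPM) had a log2 fold change of 0.20 (SE 0.08), and Rpl32 of 0.14 (SE 0.06). Rpl26, known as a regulator of p53 translation, went the other way, with 78.3, 97.4, 75.2 and 82.1 CPM in contralateral and 99.5, 98.6, 97.7 and 89.0 CPM in ipsilateral libraries, a log2 fold change of -0.21 (SE 0.09). In each of these 5 genes contralateral 2 was the library nearest to the ipsilateral values.

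**Figure D3:**
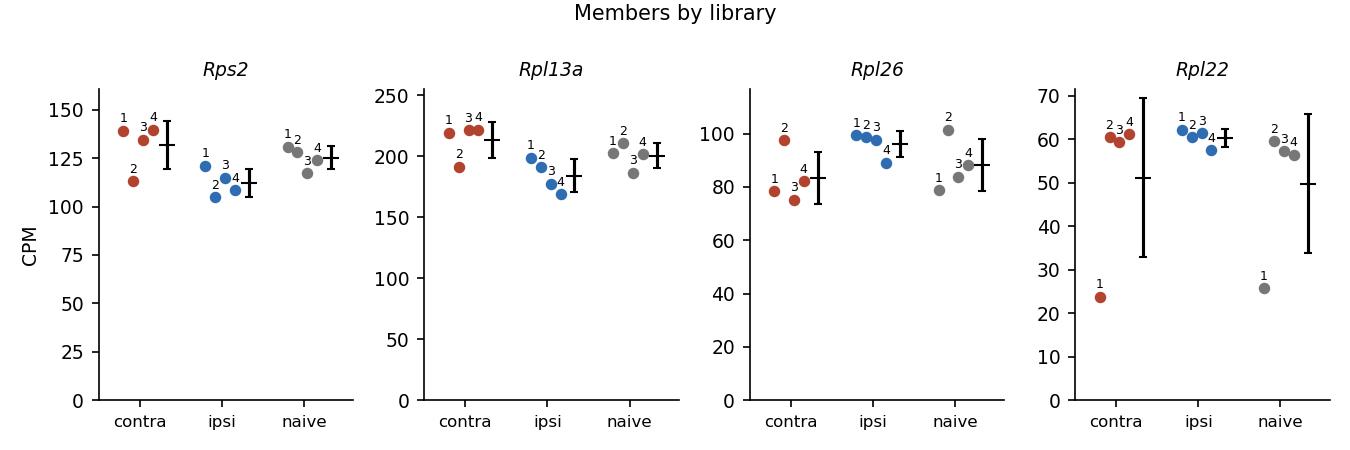
CPM of Rps2, Rpl13a, Rpl26 and Rpl22 in each library, from 0; points are libraries with their number, and bars are the mean and SD of 4 libraries. Contralateral 2 lies apart from the other contralateral libraries for Rps2, Rpl13a and Rpl26; Rpl22 is low in contralateral 1 (23.8 CPM) and naive 1 (25.8 CPM).

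Members with assigned roles beyond the ribosome's core were followed whatever their values. Rplp0, the base of the stalk, had 124, 118, 129 and 129 CPM in contralateral, 122, 119.7, 114 and 105 CPM in ipsilateral and 124, 125, 103 and 111 CPM in naive libraries, and its groups overlapped. The contralateral against ipsilateral log2 fold change was 0.12 (SE 0.07) for Rplp0 and 0.07 (SE 0.09) for its partner Rplp2. Rps6, the substrate of the S6 kinases below mTOR, stood at 6.1 to 7.9 CPM in contralateral, 6.3 to 8.3 CPM in ipsilateral and 6.2 to 6.8 CPM in naive libraries, with a log2 fold change of -0.07 (SE 0.12) between the hemispheres. Rpl5 and Rpl11, which with 5S ribosomal RNA bind and hold back Mdm2, gave 0.04 (SE 0.07) and 0.09 (SE 0.16), the latter from a mean of 74.5 counts. Rps19, the gene most often mutated in Diamond-Blackfan anaemia, gave 0.17 (SE 0.10), with 38.7 to 48.7 CPM in contralateral and 33.6 to 42.2 CPM in ipsilateral libraries. Rps14, lost in the 5q- syndrome, gave 0.10 (SE 0.10), Rps25, used by several viral internal ribosome entry sites, 0.09 (SE 0.07), and Rpl38, needed for axial patterning in the mouse, -0.02 (SE 0.09). None of these members passed the test (edgeR).

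With the hemispheres of each CCI mouse summed, 51 of 78 members had a positive log2 fold change against naive mice, against 50.3% of the 16179 genes tested, and the median was 0.032 over the members and 0.001 over all genes. No member was called (edgeR), 0% of all genes were, and 0 members and 679 genes had an unadjusted p under 0.05; DESeq2 called 31 genes and limma 0, with no member in either. Without naive 3 the count was 38 of 78 and the median -0.002. Only Rps23 had separated groups, at 1.065 to 1.313 CPM in CCI mice and 0.78 to 1.00 CPM in naive mice, against 1.22% of all genes higher and 1.5% lower.

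**Figure D4:**
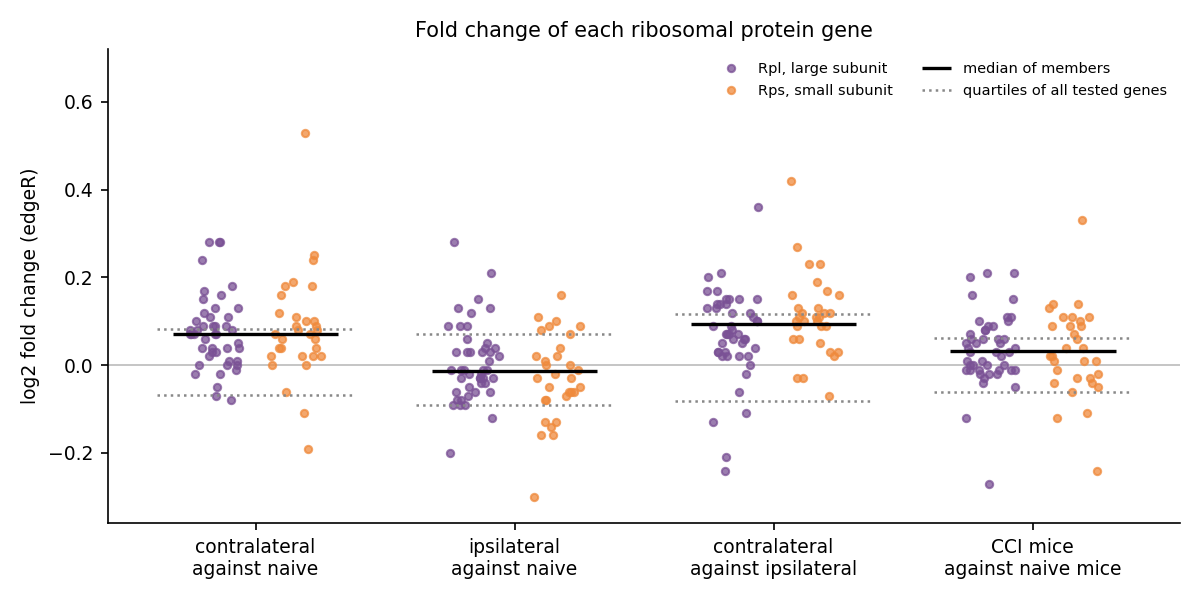
log2 fold change (edgeR) of each tested member in the 4 comparisons, large-subunit members in purple and small-subunit members in orange; black lines are the medians of the members and dotted lines the quartiles of all tested genes. The medians are 0.072, -0.013, 0.095 and 0.032 from left to right.

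Within single mice the difference between the hemispheres was uneven. In CCI mouse 4, 67 of 77 members had a higher log2 CPM on the right, with a median right minus left of 0.216 and with 51.1% of all genes higher on the right. Mouse 1 had 57 members higher on the right (median 0.087), with 50.2% of all genes, and mouse 3 had 54 (median 0.066), with 48.7% of all genes. In mouse 2 the count was 34, with a median of -0.022 and with 50.6% of all genes higher on the right. Thus 16 members were higher on the right in all 4 mice, 34 in 3 of 4, 20 in 2, 6 in 1 and 1 in none. Such counts over mice were not made for all genes, so how unusual they are is not known. Without both libraries of mouse 4, the count of members with a positive contralateral against ipsilateral log2 fold change was 59 of 77 and the median 0.049.

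**Figure D5:**
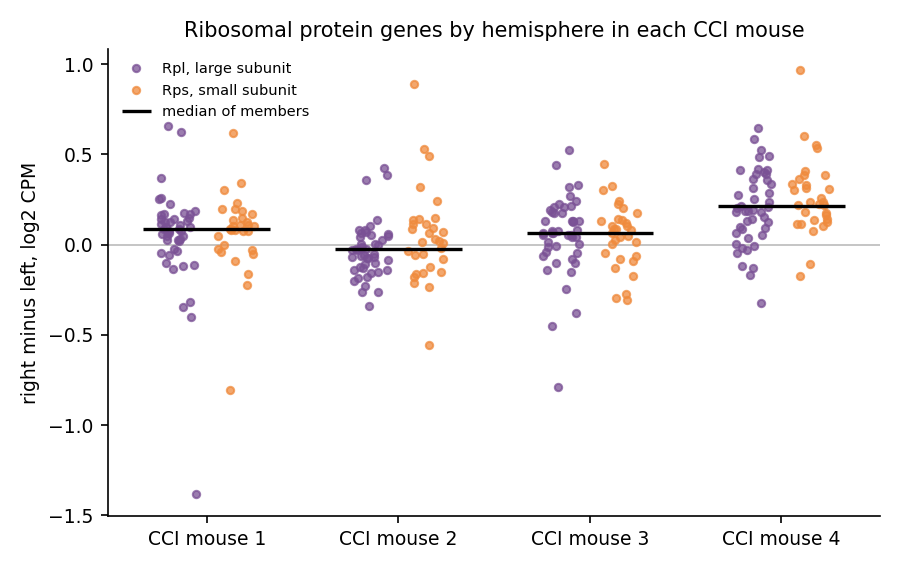
Right minus left difference in log2 CPM for each of the 77 tested members in the 4 CCI mice, large-subunit members in purple and small-subunit members in orange, with black lines at the medians. The medians are 0.087, -0.022, 0.066 and 0.216 for mice 1 to 4; the lowest point in mouse 1 is Rpl22.

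Members varied together across the 12 libraries. The correlation of a member with the mean of the other members had a median of 0.61, from -0.38 for Rpl36a to 0.96 for Rps19, and 47 of 77 members (61.0%) were above 0.5, against 12.1% of the 15731 other tested genes correlated with the same mean. These values are descriptions over 12 libraries that include both hemispheres of 4 mice. The genes outside the list most like the members' mean were Hmha1 (0.96), Mt1 (0.95), Gm28438 (0.92), Ly6c1 (0.91) and Rpl9-ps6 (0.91). Once the members' mean was taken off, the least variable were Rps3, at the mRNA entry channel (SD 0.037 on the log2 scale, 157 to 181 CPM), and Rps4x (SD 0.039). Rps13, at 1.7 to 3.5 CPM, was among the most variable (SD 0.299).

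Rpl22 had the largest spread of the tested members, with an SD of 0.494 on the log2 scale. This large-subunit protein, which is known to hold down the message of its paralogue Rpl22l1, was at 23.8 CPM in contralateral 1 and 25.8 CPM in naive 1. The other 10 libraries held 56.5 to 62.2 CPM, and ipsilateral 1, read as the same mouse as contralateral 1, held 62.2 CPM. The log2 fold change of Rpl22 was 0.04 (SE 0.32) in contralateral against naive, 0.28 (SE 0.32) in ipsilateral against naive and -0.24 (SE 0.32) between the hemispheres. The first became 0.28 without contralateral 1 and -0.17 without naive 1, the second 0.07 without naive 1, and the last 0.01 without both libraries of mouse 1. Rpl22l1 stood at 12.5 CPM in contralateral 1 and 10.8 CPM in naive 1, within or just above its range of 7.7 to 12.3 CPM in the other libraries. Among paralogue pairs, Rpl10, the parent of Rpl10l, held 13.2 to 16.6 CPM. Rpl3 held 108 to 125 CPM and Rpl3l, known from muscle, 0.1 to 0.9 CPM. Rps4x held 126 to 143 CPM and Rps4l 10.3 to 21.5 CPM. Rps4l had no coding transcript in GENCODE M21, so its own windows were not compared with other genes and its level is uncertain. Rpl39 held 5.7 to 8.6 CPM and Rpl39l, known from testis, at most 0.2 CPM, and Rps27l, a p53 target, held 2.6 to 5.0 CPM. Rpl3l, Rpl39l and Rpl10l were too low to be tested between libraries.

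Rpsa, the laminin-receptor ribosomal protein that the naming rule leaves out, had a contralateral against ipsilateral log2 fold change of 0.17 (SE 0.07; edgeR adjusted p = 0.592), with 248 to 298 CPM in contralateral and 231 to 260.1 CPM in ipsilateral libraries. In the rest of the translation machinery no gene was called between the hemispheres. A positive log2 fold change was found for 10 of 36 initiation factors (median -0.052), 5 of 13 elongation and release factors (-0.010), 11 of 35 ribosome biogenesis factors (-0.027) and 14 of 34 genes of mTOR and translation control kinases (-0.026). The mitochondrial ribosomal proteins had 28 of 77 (-0.031) and nuclear-encoded oxidative phosphorylation genes 11 of 74 (-0.058). Eif3d, a subunit of the initiation factor that holds the small subunit, gave -0.16 (SE 0.06; edgeR adjusted p = 0.592), and Eef1a2, the elongation factor of mature neurons, -0.15 (SE 0.05). In CCI mice against naive mice the initiation factor Eif4h had a log2 fold change of 0.48 (SE 0.07; edgeR adjusted p = 0.102), and in ipsilateral against naive the mTOR inhibitor Deptor had 0.47 (SE 0.19; edgeR adjusted p = 0.972).

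Markers of non-neuronal cells also had mostly positive values between the hemispheres. All 22 tested microglial markers had a positive contralateral against ipsilateral log2 fold change (median 0.190), as did 19 of 20 astrocyte (0.159), 17 of 18 endothelial (0.131), 13 of 14 oligodendrocyte precursor (0.180), 18 of 18 oligodendrocyte (0.152) and 16 of 16 meningeal markers (0.521), and none was called (edgeR). Excitatory neuron markers had 6 of 18 (-0.081) and interneuron markers 7 of 18 (-0.011). Striatal neuron markers, however, had 12 of 14 (0.366), blood cell markers 6 of 6 (0.232) and markers of choroid plexus and ependyma 5 of 5 (0.29). Summed microglial markers ranged over 620.4 to 881 CPM in contralateral, 633 to 657 CPM in ipsilateral and 636 to 764 CPM in naive libraries. The sums were 3653 to 7239, 3452 to 6000 and 3917 to 5869 CPM for astrocytes, 476 to 653, 478 to 521 and 488 to 567 CPM for endothelial cells, and 128 to 251, 145 to 176 and 168 to 206 CPM for meningeal cells. They were 2694 to 6137, 2733 to 5214 and 2963 to 3971 CPM for oligodendrocytes, and 869 to 1105, 886 to 958 and 925 to 980.2 CPM for their precursors. No defining marker of the types whose sums are given was at 0 in any library. Mitochondrially encoded genes were higher in 13 of 13 (median 0.107). In ipsilateral against naive, 3 of 22 microglial (median -0.104), 3 of 20 astrocyte (-0.077) and 2 of 18 endothelial markers (-0.097) were positive. The counts were 0 of 16 meningeal (-0.444), 4 of 14 precursor (-0.084) and 18 of 18 oligodendrocyte markers (0.175). Excitatory neuron markers had 9 of 18 (-0.003), interneuron markers 9 of 18 (0.004) and mitochondrially encoded genes 2 of 13 (-0.045). Striatal neuron markers had 6 of 14 (-0.033), blood cell markers 0 of 6 (-0.374) and choroid plexus and ependyma markers 1 of 5 (-0.304). The members had 31 of 77 (-0.013), a median whose sign turned when some single libraries were left out. In contralateral against naive, a positive value was found for 17 of 22 microglial (median 0.083), 16 of 20 astrocyte (0.086) and 13 of 14 precursor markers (0.113). It was found for 13 of 18 endothelial (0.067), 11 of 16 meningeal (0.074) and 18 of 18 oligodendrocyte markers (0.299). Striatal neuron markers had 12 of 14 (0.286) and mitochondrially encoded genes 12 of 13 (0.052). Fewer were positive among excitatory neuron (6 of 18, -0.071) and interneuron markers (7 of 18, -0.026). The same held for blood cell (2 of 6, -0.155) and choroid plexus and ependyma markers (2 of 5, -0.014). Library by library, the mean level of a list, on the log2 scale, was correlated with the mean level of the members at 0.81 for microglia, 0.77 for endothelial cells, 0.73 for astrocytes, 0.71 for mitochondrially encoded genes and 0.69 for precursors. The value was 0.49 for blood cells, 0.43 for choroid plexus and ependyma and 0.36 for meningeal cells. For interneurons it was 0.24, for striatal neurons 0.14, for oligodendrocytes -0.06 and for excitatory neurons -0.48. Initiation factors gave -0.58, ribosome biogenesis factors -0.50 and mitochondrial ribosomal proteins -0.41. Oxidative phosphorylation genes gave -0.18, mTOR and translation control kinases -0.05 and elongation and release factors 0.10. These are descriptions over the 12 libraries, where both means come from the same library, and which include both hemispheres of 4 mice. Oligodendrocyte markers stood at 0.561 and 0.690 above their mean in contralateral 1 and 2 and at -0.339 and -0.507 in contralateral 3 and 4. Striatal neuron markers were at 1.27 in contralateral 1 and at -0.126 to -0.199 in the other contralateral libraries. Which part of the members' values goes with these markers was not tested; in bulk tissue, fewer cells of a type and less RNA per cell cannot be told apart. The tissue's own defining marker genes, Slc17a7 and Neurod6 of excitatory neurons, were at 95.0 CPM or more in every library.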

How the data were processed

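RNA-seq libraries of 12 mPFC samples were analysed. Per the submitters' processing notes, reads were aligned with HISAT2 2.0.4 to GRCm38 (mm10); neither the counting program nor its handling of reads that fit several genes was stated in the sources used here. The authors deposited raw read counts and FPKM per gene. The main test of the counts was that of edgeR 4.0.16, run under R 4.3.3 (TMM factors, filterByExpr, robust quasi-likelihood test, two-sided, Benjamini-Hochberg over all tested genes, threshold 0.05), with the 3 groups in 1 fit of 15808 genes and, for CCI mice against naive mice, with the counts of both hemispheres summed (16179 genes). FPKM was used for the naming rule and for the gene length it implies. CPM is TMM-scaled, and log2 CPM uses a prior count of 2. The test was checked on simulated counts with planted changes larger than the log2 fold change of any member in the main fits. That check does not bear on shifts as small as those of the members.

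The members, gene lists and tests were chosen with earlier results of these data known. Members named are those at an unadjusted p under 0.05 in a comparison, the highest and lowest by FPKM, the most and least variable after the members' mean was taken off, paralogue pairs, and a list of members with known roles; 34 were named by this rule, and Rps15a, Rps24, Rpl21, Rps18, Rpl23a, Rpl35 and Rpl36a were named after their values were seen. The list of ribosomal proteins named outside the rule is not reported here as a list. Genes outside the members are the smallest p of each list and those most like the members. Replicates are libraries; where nothing says they came from separate animals, p-values measure only the spread between libraries. Windows of 50 bases of GENCODE M21 transcripts were compared exactly, and start-site windows were taken from RefSeq's table for GRCm38.p6. Alternatives included other scaling factors, no filter, DESeq2 1.42.0, limma 3.58.1, the replicate number as a block, and leaving out each library in turn.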

Additional observations from a re-analysis of the deposited data

Results flagged for a closer look

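Of 111 sets of 4 libraries tested for a library far from the others, 7 had one, and chance flags about 1 in 20 groups. Rpl22 had one in each of 2 groups: 23.78 CPM in contralateral 1, with the nearest other contralateral library at 59.28, and 25.79 CPM in naive 1, with the nearest at 56.47. Rps14 was at 124.9 CPM in ipsilateral 4, against 148.1 CPM in the nearest ipsilateral library. The small-subunit share of counts was 0.152% in the same library, against 0.167% in the next. Rplp1 stood at 159.1 CPM in naive 3, against 188.0 CPM in the next naive library, and Rpl13a at 191.2 CPM in contralateral 2, against 219.3 CPM. Rpl39l was at 0.1725 CPM in ipsilateral 3 and at 0 in the other ipsilateral libraries.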

How the results depend on the processing

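Over alternatives other than leaving libraries out, the count of members with a positive log2 fold change stayed at 66 to 69 (contralateral against naive), 31 to 35 (ipsilateral against naive), 67 to 69 (contralateral against ipsilateral) and 49 to 54 (CCI mice against naive mice), and 0 members were called in each. The setting with no filter tested 79 members, and the 69 of contralateral against naive and the 35 of ipsilateral against naive are its counts. Without each library in turn the counts ranged over 60 to 67, 22 to 42, 63 to 70 and 38 to 58, and the medians over 0.037 to 0.102, -0.047 to 0.021, 0.070 to 0.117 and -0.002 to 0.058; the lowest counts of the 3 comparisons with naive libraries (60, 22 and 38) were all without naive 3. Called members ranged over 0 to 1 between the hemispheres, the 1 being Rps2 without contralateral 2, where 159 of 15971 genes were called. Without both libraries of replicate 2 the count was also 1 of 77 members (Rps2, 0.27), beside 286 of all 15919 genes. With mitochondrially encoded genes out of the denominator, the members' shares were 0.460% (ipsilateral), 0.499% (contralateral) and 0.471% (naive). With the replicate number as a block the positive counts were 66, 32, 67 and 52, in the order above, with 0 members called. In the 3 comparisons with naive libraries that block joins different animals, so it is no pairing there. With the block and the CCI groups alone, a setting not planned in advance, 67 members were positive between the hemispheres (median 0.093) and 0 were called. Deviations of left and right libraries with the same number, read as 1 mouse, correlated at -0.14 to 0.06 over genes. Those of CCI and naive libraries with the same number, which are different animals, correlated at -0.09 to 0.10. Some signs reversed: Rps23, contralateral against naive, at -0.01 with sequence-sharing genes added (chosen after seeing the data), and, between the hemispheres without 1 library or 1 mouse in turn, Rpl38 (-0.09 to 0.02), Rps6 (-0.15 to 0.00), Rpl11 (-0.05 to 0.22), Rplp2 (-0.01 to 0.15) and Rpl22 (-0.36 to 0.01), as well as Rpl22 in contralateral against naive (-0.17 to 0.28); the cause was not tested. The members under 100 counts are the least precise.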
